A study of Mus musculus with 5 samples.

Results

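Cytosolic ribosomal protein genes encode the protein part of the 40S and 60S ribosomal subunits, and they were followed here in mouse knee joints with and without the small leucine-rich proteoglycans epiphycan and biglycan. The members were chosen by name: every probe set with a single gene symbol of the form Rps or Rpl and a number, plus Rpsa and the stalk genes Rplp0 to Rplp2, with Rps6k kinases and mitochondrial Mrp genes left out. The rule found 48 genes on 100 probe sets, out of 12393 genes with a single symbol on the arrays. Of these, 22 belong to the small subunit and 26 to the large one, and 6 are paralogs with an l in the suffix. A gene with several probe sets is represented by the one with the highest mean normalised log2 value over the 5 arrays, which for every member was also the one with the highest mean signal.

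The double-null group consisted of 3 pools from Epiphycan and Biglycan double-null mice, and the wildtype group of 2 pools. Each pool held the tibio-femoral joints of 3 male mice, 6 joints in all, from animals of 3 months on a hybrid of C57/Bl6 and 129. No group lacks 1 of the genes alone, and the labels do not say how the null alleles were made. The values are Affymetrix signals on a linear scale in 2 tables: table A holds double-null pool 3 and wildtype pool 2, and table B holds double-null pools 1 and 2 and wildtype pool 1. Separate pools of animals are the replicates.

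Ribosomal proteins are made in near-equal numbers, and their messages are among the most abundant in a growing or secreting cell. Most vertebrate ribosomal protein messages begin with a C followed by a run of pyrimidines, the terminal oligopyrimidine tract, through which mTOR signalling controls their translation. Array signals count message and carry no information on that translation. The mammalian genome also holds many processed copies of these genes, so probes for them can match other transcripts.

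The start sites of several members are printed from the RefSeq promoter table (GRCm38.p6), 20 bases before to 10 bases from the annotated start. They include all 8 members, of 42 found there, with a C and at least 4 pyrimidines at the annotated start. Capitals mark the C-plus-pyrimidine run inside the window, which in the first 8 genes was read from the annotated start onward. Pyrimidines directly upstream of the start were not counted and stay in lower case. In all 8 of these genes the unbroken stretch therefore begins before the annotated start. Rpl11 and Rpl3l, which come up again below, have no run beginning within 5 bases of the start. For Rpl3l this holds at either of its 2 starts, of which the upstream one is printed.
Rps6, chr4:86857358-86857387, minus strand: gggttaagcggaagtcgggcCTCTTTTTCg
Rps10, chr17:27635235-27635264, minus strand: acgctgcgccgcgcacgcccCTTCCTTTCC
Rps18, chr17:33955656-33955685, minus strand: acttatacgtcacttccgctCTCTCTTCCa
Rps27, chr3:90213639-90213668, minus strand: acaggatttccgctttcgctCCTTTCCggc
Rpl14, chr9:120571497-120571526, plus strand: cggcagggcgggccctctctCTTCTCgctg
Rpl35, chr2:39005122-39005151, minus strand: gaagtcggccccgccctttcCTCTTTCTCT
Rpl38, chr11:114668560-114668589, plus strand: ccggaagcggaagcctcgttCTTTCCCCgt
Rplp2, chr7:141447631-141447660, plus strand: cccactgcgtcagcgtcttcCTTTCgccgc
Rpl11, chr4:136053384-136053413, minus strand: gcctcctgacccataaggccacggggccgg
Rpl3l, chr17:24727806-24727835, plus strand: cagctgagtgttctagctctgtcatttgac

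The promoter table matched 42 of the 48 members, with 50 start sites. A C at the annotated start followed by at least 4 pyrimidines, read on the strand of the gene, was found at 8 of these 50 sites (16.0%), against 2.51% of the 32851 sites of all genes. Allowing the run to begin within 5 bases of the annotated start, the shares were 42.0% and 18.3%. An annotated start can lie some bases from the one used in a tissue, so a window without the run says only that these letters are not there.

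The study's samples matched their labels at the targeted genes. The probe set that stood for Bgn read 204, 224 and 206 in double-null pools 1 to 3, against 3413 and 2003 in wildtype pools 1 and 2, and its 2 others read 7.05 to 67.6 against 2024 to 4063. Epyc read 10.8, 3.38 and 1.29 against 91.2 and 78.8. Cartilage genes marked the tissue as joint: of 10 markers, 9 lay above the filter on dim genes, among them Col2a1 with a mean signal of 5666 and Prg4, the gene of lubricin, with 5426, and Matn1 alone was dim. The 3' over 5' signal ratio, a sign of RNA quality, ran from 0.888 to 1.04 for Gapdh in the double-null pools and from 0.849 to 1.03 in the wildtype pools, and from 1.08 to 1.25 and from 1.10 to 1.15 for Actb. Probe sets for Bacillus genes, 27 on each array, serve as a background, and the highest of them read 27.5 to 63.5 in the double-null and 36.3 to 38.5 in the wildtype pools. On every array 47 of the 48 members read above it.

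No member was called between the genotypes. The comparison asks which joint transcripts differ when both proteoglycans are missing, and was made with limma over 7436 genes whose mean exceeded the 40th percentile, a signal near 98.5, on the quantile-normalised log2(signal + 32) scale with the table as a term. That scale understates changes of dim genes. Of the 48 members 45 passed this filter, and 0 of the 45 passed limma's Benjamini-Hochberg adjusted threshold of 0.05, against 9 of 7436 genes, or 0.121% (0.0807% higher and 0.0403% lower in double-null joints). At an unadjusted p under 0.05 limma gave 1 member, Rpl11, or 2.22%, against 6.17% of all genes tested, of which 3.52% were higher and 2.65% lower. With 2 against 3 arrays an exact permutation test of 1 gene cannot give a p below 0.1.

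The fold changes of the members lay close to 0. Of the 45, 21 were positive and 24 negative, with a median log2 fold change, double-null over wildtype, of -0.0092 and a range of -0.33 to 0.38, beside a median of -0.011 and 3562 positive against 3874 negative values over all genes tested. The estimate was smaller than 0.1 in size for 28 members and smaller than 0.25 for 42. In the small subunit 12 genes were positive and 9 negative (median 0.0073), and in the large subunit 9 were positive and 15 negative (median -0.024). A p above the threshold does not show that levels were equal, so the intervals matter: the 95% interval lay wholly within -0.5 to 0.5 for 33 of the 45 members. Its half-width ran from 0.24 to 0.59, with a median of 0.28, on the log2 scale. For Rps28, a small-subunit protein, the interval covered a fold of 0.832 to 1.17, and for Rpl27a it covered 0.529 to 1.19.

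**Figure D1:**
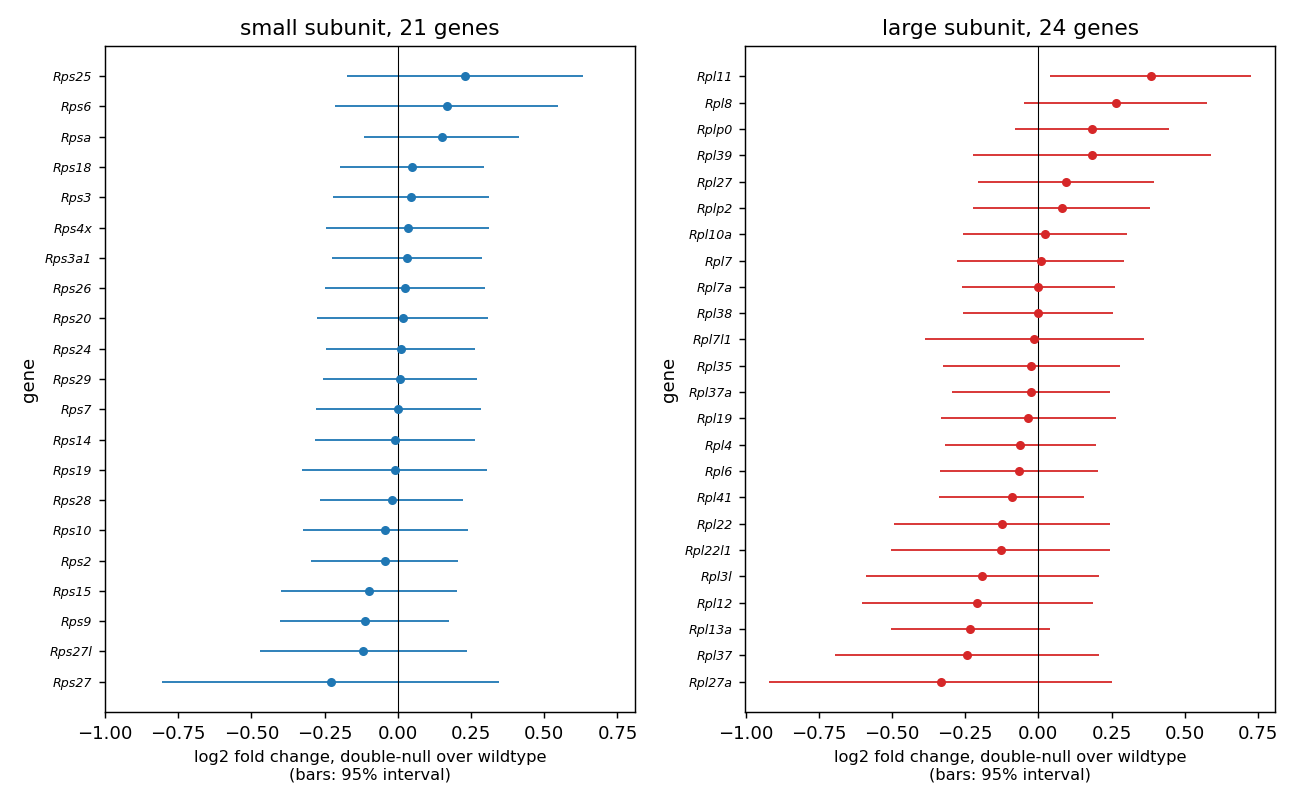
Log2 fold change of each tested small-subunit gene (left, 21 genes) and large-subunit gene (right, 24 genes), double-null over wildtype, with its 95% interval. Points run from -0.33 for Rpl27a to 0.38 for Rpl11, and only the interval of Rpl11 leaves out 0.

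Rpl11 had the highest fold change of the tested members. It binds the 5S ribosomal RNA together with Rpl5, and when free it inhibits Mdm2 and so raises p53. Its single probe set with 1 symbol read 2556, 2693 and 2429 in double-null pools 1 to 3, against 1753 and 2114 in wildtype pools 1 and 2, so every double-null pool lay above both wildtype pools. The fold was 1.31 (log2 fold change 0.38 ± 0.16 SE, limma unadjusted p = 0.031, adjusted p = 0.75), with 0.20 in table A and 0.52 in table B. Over 17 alternative settings it ran from 0.20 to 0.52 and passed in none that had a test, with limma's adjusted p no lower than 0.46. A dim probe set that Rpl11 shares with Gm5093 overlapped, at 86.8, 96.4 and 94.9 against 86.4 and 106 (0.031 ± 0.21). Rpl5, the partner of Rpl11, has probe sets only under several symbols and is not a member.

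Genes of the large-subunit stalk, where translation factors dock, had estimates of both signs. Rplp0, the base of the stalk and a common normaliser in PCR work, read 7673, 9495 and 7664 in the double-null pools against 7920 and 6375 in the wildtype pools (log2 fold change 0.18 ± 0.12). On the normalised scale all 3 double-null values exceeded both wildtype values, while the deposited signals overlapped. Rplp2, an acidic stalk protein, read 5685, 6344 and 8170 against 7103 and 5995 (0.080 ± 0.14). Its difference was 0.33 in table A and -0.11 in table B, and double-null pool 3 alone was high. Rpl12, a protein of the stalk base, read 127.9, 149 and 161 against 172 and 193.5 (-0.21 ± 0.18). All 3 double-null pools lay below both wildtype pools, at -0.23 in table A and -0.19 in table B, yet the 95% interval ran from -0.60 to 0.19. Brighter probe sets of Rpl12 under several symbols were at -0.16 and 0.034.

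Among the other large-subunit genes, Rpl8, next to the catalytic centre, read 3936, 4313 and 4726 in the double-null pools against 3198 and 4155 in the wildtype pools, with overlapping groups (0.26 ± 0.14, unadjusted p = 0.091, adjusted p = 0.85 by limma). Rpl13a, which in human monocytes also serves in a complex that silences inflammatory messages, had negative differences in both tables, -0.36 in A and -0.13 in B. Its brightest probe set read 6519, 7753 and 6734 against 8903 and 7644 (-0.23 ± 0.12, limma unadjusted p = 0.087, adjusted p = 0.85), below both wildtype arrays on the normalised scale and overlapping in deposited signal. In the fit of all probe sets its others were at -0.34, -0.27 and 0.085, so 3 of its 4 probe sets were negative. Rpl27a had the lowest estimate, -0.33 ± 0.27, and the groups overlapped widely. It read 728, 1333 and 921 against 1591 and 808, which gave -0.73 in table B and 0.19 in table A. Rpl37 had the same pattern, at 937.5, 1328 and 1212 against 1481 and 1180 (-0.24 ± 0.21, with -0.47 in table B and 0.055 in table A). The single wildtype pool of table B was the highest of the 5 for both genes. A brighter probe set under several symbols was at 0.047 for Rpl27a, and such probe sets were at -0.13 and 0.053 for Rpl37.

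The remaining large-subunit members tested, Rpl3l and Rpl39 apart, lay between -0.13 and 0.095: Rpl4, Rpl6, Rpl7, Rpl7a, Rpl7l1, Rpl10a, Rpl19, Rpl22, Rpl22l1, Rpl27, Rpl35, Rpl37a, Rpl38 and Rpl41. Rpl3l and Rpl39, at -0.19 and 0.18, are given below. Rpl41, the smallest ribosomal protein, read 9218, 11206 and 10493 against 13695 and 9237 (-0.091 ± 0.11), and its normalised values put every double-null array below both wildtype arrays.

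Small-subunit genes spanned -0.23 to 0.23. Rps6, the substrate of the S6 kinases downstream of mTOR, read 349, 307 and 330 in the double-null pools against 276 and 316 in the wildtype pools (0.17 ± 0.17), with overlapping groups, and its brightest probe set under several symbols was at 0.13. Rpsa, also described as a laminin receptor, read 7309, 9172 and 8108 against 8840 and 6302 (0.15 ± 0.12). Rps25, needed for initiation on some internal entry sites, read 177, 196 and 158 against 146.5 and 149, with every double-null pool higher (0.23 ± 0.18, limma unadjusted p = 0.24). Its interval, -0.17 to 0.63, included 0, and without wildtype pool 1 the estimate was 0.057. A brighter probe set that Rps25 shares with Gm6988 and Gm4963 overlapped, at 4501, 5896 and 4356 against 5399 and 3843 (0.034 ± 0.16).

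Rps29, Rps18, Rps28 and Rps2, structural proteins of the small subunit and the 4 with its highest mean signals, gave estimates near 0. Rps29 read 10294, 13228 and 12037 in the double-null pools against 13202 and 10613 in the wildtype pools, at 0.0073 ± 0.12. Rps18 read 9423, 13865 and 9675 against 13298 and 8451, at 0.050 ± 0.11. Rps2 and Rps28 were at -0.045 and -0.021. In each of these genes the deposited signals of the groups overlapped. The rest of the small subunit, namely Rps3, Rps3a1, Rps4x, Rps7, Rps9, Rps10, Rps14, Rps15, Rps19, Rps20, Rps24, Rps26 and Rps27l, lay between -0.12 and 0.046, and Rps27 is given below. Signals of different probe sets are not on a common scale, so these levels do not order the genes.

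On the normalised scale the share of members whose groups did not overlap was near that of all genes. All 3 double-null values exceeded both wildtype values for 4 members (Rpl11, Rplp0, Rps25 and Rpsa), or 8.89%, against 9.45% of all genes tested, and were under both for 5 (Rpl12, Rpl13a, Rpl41, Rps2 and Rps27l), or 11.1%, against 10.2%. In deposited signals the shares of members were lower than those of all genes. There 2 of the 45 lay above (Rpl11 and Rps25), where 8.47% of all genes did, and 2 below (Rpl12 and Rps9), where 10.9% did.

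For most members the tables differed in sign. The median difference was -0.031 in table A, with 18 of 45 members positive, and 0.028 in table B, with 24 of 45 positive. For small-subunit genes it was -0.018 and 0.081, and for large-subunit genes -0.054 and -0.011. In 17 of the 45 the sign was shared by both tables (37.8%), beside 47.3% of all genes tested. Each table has a single wildtype pool and its own platform record, so table, platform record and pool cannot be told apart.

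**Figure D2:**
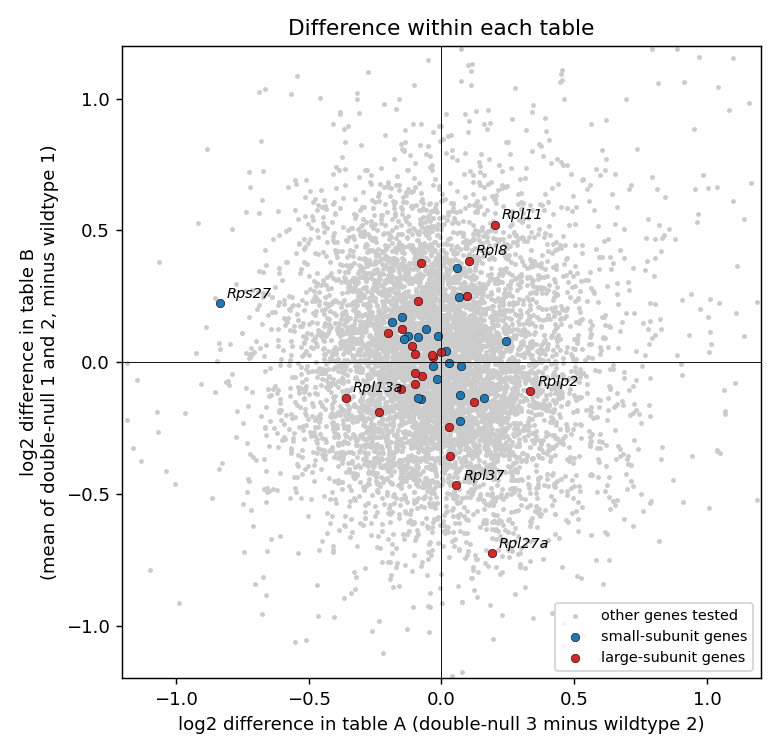
Log2 difference, double-null minus wildtype, in table A (horizontal) and table B (vertical) for the tested ribosomal protein genes (coloured) and all other genes tested (grey). The members cluster around the crossing point, and Rps27 (-0.83 in table A) and Rpl27a (-0.73 in table B) lie farthest out, each in 1 table. The axes end at 1.2, and 45 of the 7436 genes fall outside them.

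The SD over the 5 arrays on the normalised log2 scale had a median of 0.11 for the 45 members, beside 0.20 for all genes tested, and 82.2% of the members lay below the median of all genes. The residual SD of the fit had medians of 0.11 and 0.17. Quantile normalisation gives every array the same values at the top of the range, and 38 of the 45 members are at or above the 90th percentile of signal there.

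In deposited signals the members differed between arrays of the same genotype. The summed signal of the 48 members took 5.08%, 5.99% and 5.32% of all gene signal in double-null pools 1 to 3, against 6.01% and 4.98% in wildtype pools 1 and 2. As a ratio to each gene's own mean, taken on the log2(signal + 32) scale, the median tested member stood at 0.928, 1.09 and 0.9751 in the double-null pools against 1.12 and 0.908 in the wildtype pools. Double-null pool 2 and wildtype pool 1 were high and the other pools low, so each genotype held both kinds. The 744 genes with the highest signals stood at 1.04, 1.04 and 0.971 against 1.01 and 0.956. With the deposited scaling the split among members was 13 of 45 positive (28.9%), in place of 21 of 45 (46.7%), where all genes had 45.6% in place of 47.9%, and the median -0.041, while 0 passed under either scaling.

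**Figure D3:**
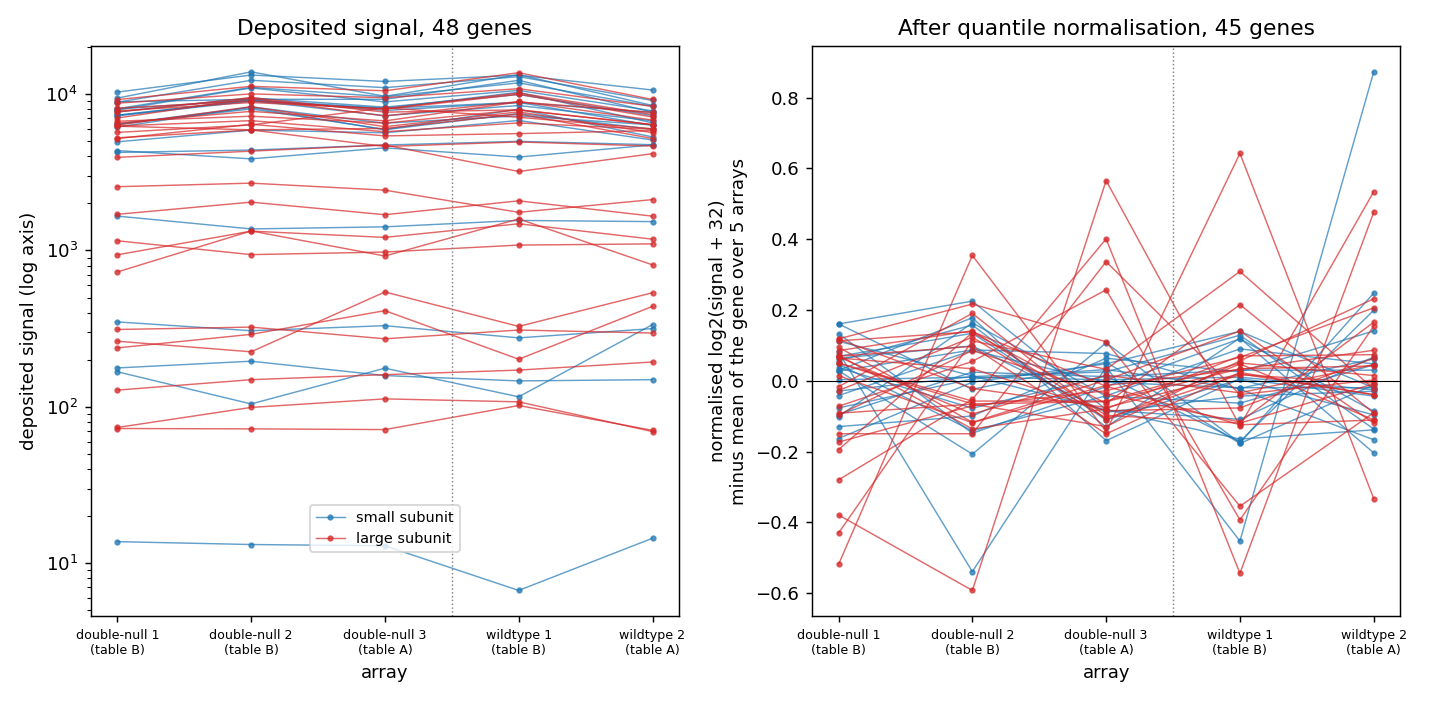
Deposited signal of the 48 ribosomal protein genes on each array (left, log axis) and the deviation of the 45 tested genes from their own mean after quantile normalisation (right, log2 scale), with 1 line a gene. On the left most lines peak at double-null pool 2 and wildtype pool 1, and on the right most stay within 0.25 of 0, with Rps27, Rpl27a, Rpl3l and Rpl39 farthest out.

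As shares of gene signal, the sums of granulocyte markers and of macrophage markers were also highest on those 2 arrays. So was that of messages of elongation factors and other tract-bearing genes. The shares of osteoblast markers and of all other marker and pathway lists, cartilage and skeletal muscle among them, were not. The 11 measured of 12 granulocyte markers took 2.01%, 2.76% and 2.37% of gene signal in the double-null pools against 3.09% and 2.09% in the wildtype pools. The sum was not shared by the typical granulocyte marker in double-null pool 2, where the median deviation on the normalised log2 scale was -0.013, against 0.16 in wildtype pool 1. All 8 macrophage markers took 0.351%, 0.416% and 0.321% against 0.434% and 0.325%. Their median deviation was 0.084, 0.095 and -0.0036 in the double-null pools against 0.098 and -0.052 in the wildtype pools. The 18 tract-bearing messages took 1.52%, 1.76% and 1.61% against 1.81% and 1.38%. Their median deviation was 0.020, 0.0091 and -0.0066 against -0.021 and -0.035, so the typical one was not high in wildtype pool 1. The 7 measured of 8 osteoblast markers took 0.590%, 0.771% and 0.795% against 0.891% and 0.589%. Their part in the ribosomal protein values was not tested.

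The members with the largest spread over arrays were Rps27, Rpl3l and Rpl27a, with SDs of 0.56, 0.53 and 0.48. Rpl3l is the paralog of Rpl3 made in skeletal and heart muscle. It read 263, 225 and 542 in double-null pools 1 to 3, against 327 and 536 in wildtype pools 1 and 2, so the highest values were those of double-null pool 3 and wildtype pool 2, the 2 arrays of table A. Its log2 fold change was -0.19 ± 0.18, with 0.031 in table A and -0.36 in table B. Without the table as a term it was -0.34 and with a replicate block in its place -0.69, with no call in any setting.

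Skeletal muscle markers, all 10 of 10 measured, were high on the same arrays as Rpl3l. Their summed signal took 1.07%, 0.754% and 1.86% of gene signal in the double-null pools against 1.21% and 1.56% in the wildtype pools. In deposited signals 8 of the 10 had both arrays of table A above all 3 of table B, as did 13.2% of all genes tested. Among the 45 members 4 did so, a smaller share than of all genes: Rpl3l, Rpl39, Rps19 and Rps27. On the normalised log2 scale Rps27 did not, with 7.67 in double-null pool 3 and 7.71 in double-null pool 1, while Rpl8, Rplp2, Rps9 and Rps28 did. In whole joints more muscle cells and more message per muscle cell cannot be told apart. The 2 high arrays of the muscle markers are all of table A, so table and platform record cannot be told apart from either. Rpl39, which lines the exit tunnel of the large subunit, read 238, 291 and 412 against 202 and 439 (0.18 ± 0.19), and Rps27, a zinc-finger protein of the small subunit, 168, 104 and 177 against 116 and 336 (-0.23 ± 0.26). The value of wildtype pool 2 set the estimate of Rps27: it was -0.83 in table A and 0.22 in table B. Rpl39 and Rps27 also have bright probe sets under several symbols, and these were not high in table A. For Rpl39 with Gm32211 one read 10073, 15659 and 10694 against 15852 and 7989 (0.10 ± 0.16), and for Rps27 with Rps27rt one read 5277, 5899 and 5752 against 6802 and 5058 (-0.041 ± 0.15). The part of muscle content in these values was not tested.

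**Figure D4:**
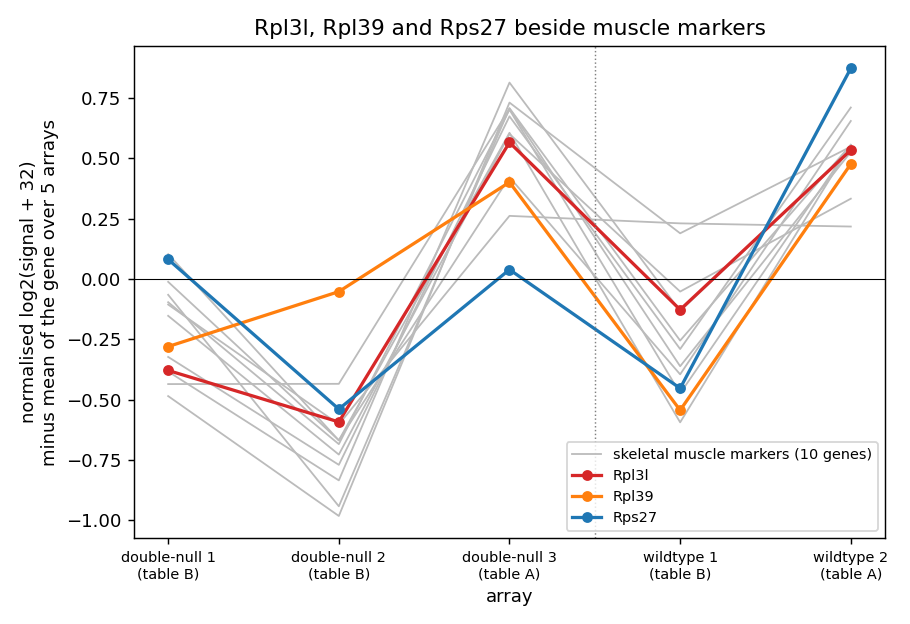
Deviation from the gene's own mean on the normalised log2 scale, by array, for Rpl3l, Rpl39 and Rps27 and for the 10 skeletal muscle markers (grey). Rpl3l is highest in double-null pool 3 and wildtype pool 2, both of table A, and so is Rpl39. On this scale Rps27 is not, while Rps19, Rpl8, Rplp2, Rps9 and Rps28 are and are not drawn.

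Other paralogs gave small values. Rpl22l1, which can replace Rpl22, read 1702, 2036 and 1692 in the double-null pools against 2076 and 1656 in the wildtype pools (-0.13 ± 0.17), and Rpl22 itself 1153, 940 and 977 against 1082 and 1101 (-0.12 ± 0.17). In both genes the genotypes overlapped. Rps27l, a p53 target and paralog of Rps27, read 1658, 1373 and 1416 against 1555 and 1529 (-0.12 ± 0.16), and its 3 probe sets were all negative, between -0.22 and -0.070. Rpl7l1, a factor of ribosome assembly related to Rpl7, was at -0.013 ± 0.17 and Rpl7 at 0.0080 ± 0.13.

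Rpl39l, Rpl14 and Rps4l were under the filter and were not tested. Rpl39l, a testis-rich paralog of Rpl39, read 73.8, 99.1 and 112 in the double-null pools against 108 and 69.4 in the wildtype pools. Rpl14 read 72.7, 72.3 and 71.5 against 102 and 70.7 on its only probe set with 1 symbol. On 5 others, shared with Rpl14-ps1, its mean signals ran from 2150 to 6522 and its log2 fold changes from -0.030 to 0.13. Rps4l, a transcribed pseudogene in the RefSeq table, read 13.7, 13.2 and 12.9 against 6.70 and 14.4, inside the range of the Bacillus controls. None of these showed separate groups.

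Several probe sets of a gene often differed in sign. Of the 48 chosen probe sets 17 had a plain _at ending, 16 ended in _a_at, 1 in _s_at and 14 in _x_at, an ending that marks probes shared with other sequences. Plain endings made up 31.1% of the tested members, beside 69.4% of all genes tested. The 14 tested members with a plain ending had a median log2 fold change of -0.024 and the 31 others -0.0010. Of the members 23 had several probe sets, and some of these were under the highest Bacillus control, as the second one of Rpsa. Of the 19 members with more than 1 probe set above the filter, 10 had both signs, with estimates at most 0.50 apart.

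Taking every probe set of the members in place of 1 a gene also gave no call. Over the 82 above the filter, in a limma fit of 22626 probe sets, 34 were positive and 48 negative with a median of -0.023, 0 passed and 2 had an unadjusted p under 0.05. Of all 12330 probe sets above the filter in that fit 0.0406% passed and 4.84% had an unadjusted p under 0.05. Another 102 probe sets name a ribosomal protein gene beside a pseudogene or another gene, and 28 ribosomal protein genes, among them Rpl3, Rpl5, Rplp1, Rpl10 and Rps12, are found only there. Of these probe sets 89 were above the filter, of which 36 were positive and 53 negative, with a median of -0.015 and a range of -0.59 to 0.80. By limma 0 of the 89 passed, with adjusted p no lower than 0.57, and 2 had an unadjusted p under 0.05. The highest, shared by Rpl36a and Rpl36al, read 3689, 3839 and 3346 in double-null pools 1 to 3 against 1694 and 2480 in wildtype pools 1 and 2. It was at 0.80 ± 0.18 (limma unadjusted p = 0.0031, adjusted p = 0.57), with 0.44 in table A and 1.07 in table B. A probe set that they share with Dnaaf2 was at -0.16. The lowest, under Rpl17 and other symbols, was at -0.59 ± 0.19, and brighter ones of Rpl17 were at 0.15, 0.16 and 0.32.

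The 7 tested members with the run at the start had a median log2 fold change of -0.0010 and a range of -0.23 to 0.17. The 19 with a run within 5 bases, these 7 included, were 7 positive and 12 negative, with a median of -0.035 and a range of -0.33 to 0.18, and the 21 with none there had a median of -0.011 and a range of -0.24 to 0.38. Rpl11 has no run there, as its printed start shows. The members lie on 17 chromosomes. The nearest members to the targeted genes are far from them: Rps15 lies 17.4 Mb from Epyc on chromosome 10 and Rps4x 28.7 Mb from Bgn on chromosome X (GRCm38.p6).

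Genes that work with the ribosome gave values of the same order, with 0 called by limma in each list. Fau, the fusion gene of a further small-subunit protein, was the 1 analysed here of 3 ribosomal protein genes with other names, at -0.14 ± 0.15. Of 18 tested genes of elongation and other messages with pyrimidine tracts, 11 were positive and 7 negative, with a median of 0.062. In this list the elongation factor gene Eef2 read 4741, 4346 and 5036 in the double-null pools against 6818 and 4606 in the wildtype pools (-0.23 ± 0.15), Vim was at 0.27 ± 0.15, and Eif3e, an initiation factor subunit, was at 0.21 ± 0.16. None of the 18 had an unadjusted p under 0.05. Of 21 initiation factors 12 were positive and 9 negative, with a median of 0.036 and 0 at an unadjusted p under 0.05, and Eif3d, Eif2s3x and Eif5a were at -0.30, 0.20 and -0.13.

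Of 29 tested genes of ribosome assembly, 8 had positive and 21 negative estimates, with a median of -0.089, 0 called and 0 at an unadjusted p under 0.05 by limma. Nop58, a core protein of the particles that methylate ribosomal RNA, read 156, 150 and 284 in the double-null pools against 257 and 289 in the wildtype pools (-0.35 ± 0.19), low in double-null pools 1 and 2 alone. Rrp1 and Tsr1 were at -0.20 and -0.21. Mitochondrial ribosomal proteins, encoded by a separate family, had 25 positive and 48 negative values of 73, with a median of -0.049, 0 called and 2 at an unadjusted p under 0.05, both higher. These were Mrps18c, at 416, 507 and 495 in the double-null pools against 301 and 400 in the wildtype pools (0.46 ± 0.18, limma adjusted p = 0.72), and Mrpl39 (0.51 ± 0.21). All 3 double-null values were under both wildtype values for 18 of the 73, where 10.2% of all genes did so. The family's median difference was -0.12 in table A and -0.0069 in table B.

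Of 15 tested genes of mTOR and S6 kinase signalling 5 were positive and 10 negative, with a median of -0.044. Ddit4, a stress-induced inhibitor of mTOR, read 221, 438 and 320 in the double-null pools against 573 and 708 in the wildtype pools, with every double-null pool lower (-0.92 ± 0.24, limma unadjusted p = 0.0024, adjusted p = 0.29). It was the only gene of the list with an unadjusted p under 0.05. Mlst8, an mTOR complex subunit, was at -0.30 ± 0.18, and Eif4ebp1, the repressor that mTOR inactivates, at 0.18 ± 0.17.

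Marker lists of other joint cell types had 0 called genes each by limma. Their median log2 fold changes were -0.065 for cartilage, -0.063 for osteoblasts, -0.092 for skeletal muscle, 0.012 for erythroid cells, -0.13 for the B lineage, -0.099 for granulocytes, -0.052 for macrophages, -0.078 for adipocytes and 0.039 for dividing cells. At an unadjusted p under 0.05 by limma there were 3 of 9 tested cartilage genes, 1 higher and 2 lower in double-null joints. There was 1 of 8 in the B lineage, 1 of 11 in the granulocyte and 1 of 4 in the adipocyte list, each lower. The macrophage list had 1 of 8, which was higher. Over all genes tested the share was 6.17%.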

How the data were processed

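Per the labels' protocols, RNA of the pooled joints was purified with Trizol and then RNeasy columns, and biotin was added during in-vitro transcription. The deposited values are linear intensities, 1 for each probe set. The submitters' processing notes name MAS5, with version and scaling not given in the sources used here. After that step, the 2% trimmed mean was near 250.0 on each array. Depth has no meaning for arrays, and their number limits the precision.

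The 5 arrays were joined over 22690 probe sets, transformed as log2(signal + 32) and quantile normalised. Of all probe sets 20393 had 1 gene symbol, 691 several and 1606 none, with symbols brought up to the GRCm38.p6 table by Entrez number. The probe set with the highest mean normalised log2 value stood for each of 12393 genes, and 7436 above the 40th percentile were tested with limma 3.58.1 in R 4.3.3 (genotype and table as terms, intensity trend, 2 residual and 9.80 prior degrees of freedom). The SE and interval belong to the fitted log2 fold change. Differences within a table are values only.

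The members and lists were chosen with earlier results of these data known. Named genes were those past the threshold, the 8 highest and 8 lowest fold changes, the 5 brightest and 3 dimmest members, the 3 with the largest SD, the paralogs with their partners, a few fixed genes, and up to 3 per pathway list with the smallest p. Rps19, Rpl36a, Rpl36al, Rpl17 and the genes of single sentences on position, start sites, tissue and separate groups were named after their values were seen. Alternatives were other scalings, pseudocounts, filters, terms and probe set rules, single tables and leaving out each array. On simulated data of 7436 genes 10 draws gave a recovery of 95.1% for a log2 change of 1 and 100% for one of 2, and 6.16% of calls were false. Member estimates ran from -0.33 to 0.38, so the simulation does not bear on changes of their size. Recovery in the data can be lower: Ddit4, at -0.92, had a limma adjusted p of 0.29. Epyc, a dim gene at -1.64, had one of 0.16 in the limma fit of all probe sets. Protein features were not analysed here.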

Additional observations from a re-analysis of the deposited data

How the results depend on the processing

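The count of ribosomal protein genes past the threshold was 0 in each direction under the 17 alternatives with a test, while the count over all genes went from 0 to 50 around the 9 of the reported fit. The median over the members, -0.0092, stayed within 0.05 of 0 throughout but changed sign between tables, and so did that of the small subunit. With the deposited scaling the medians were -0.041 for all members, -0.032 for the small and -0.048 for the large subunit. In table B alone they were 0.028, 0.081 and -0.011, and in table A alone -0.031, -0.018 and -0.054. Leaving out single pools gave -0.031 to 0.028 for all members, -0.018 to 0.081 for the small subunit and -0.054 to -0.011 for the large one; the extremes are the values of single tables, since without either array of table A only table B bears on the genotype, and without wildtype pool 1 only table A does. With plain _at probe sets the small-subunit median was 0.026, over 6 members. The replicate numbers are not known to pair pools, and their deviations correlated at 0.0048 and -0.18 across genes; with the replicate block in place of the table term the small-subunit median was 0.014 and 0 genes were called. The cause of these differences was not tested. Of the 25 members refitted, Rpl8, Rpl11, Rpl12, Rpl13a, Rpl22, Rpl41, Rplp0, Rps2, Rps6, Rps25, Rps27l and Rpsa kept their sign in every alternative run, and the others changed sign in at least 1.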
